A study of Macaca fascicularis with 80 samples.

Results

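The genes described here are 200 of the 38550 genes in the main count table of a whole-blood study in cynomolgus macaques (Macaca fascicularis). They were chosen by their measured levels: close to day 0 on day 1, and higher than day 0 on days 17 and 21. Blood of 8 macaques, 4 female and 4 male, was drawn into PAXgene tubes on days 0, 1, 3, 4, 7, 8, 10, 14, 17 and 21 and profiled by bulk RNA sequencing, with 1 library per animal and day (80 libraries). Every animal received the cytokine IL-15 joined to the alpha chain of its receptor (IL-15/IL-15Ra) in rising doses. The first dose, on day 0, was 5 µg/kg, the dose of day 3 was 10 µg/kg and that of day 7 was 15 µg/kg. The day 0 samples, labelled as controls with a dose of 0, are the only baseline. No undosed animals followed over the same days were analysed here, so effects of time, repeated bleeding and dosing cannot be told apart. The labels attach to days 3 and 7 the dose given before, and do not say whether that day's blood was drawn before the new dose. Neither labels nor protocols give the animals' ages.

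IL-15 is a cytokine that cells present on their surface bound to IL-15Ra, and neighbouring lymphocytes receive it through the receptor chains shared with IL-2. It is known for sustaining natural killer cells and memory CD8 T cells and for driving them to divide. Whole blood mixes RNA of granulocytes, monocytes, lymphocytes, platelets and immature red cells. In such bulk samples, fewer cells of a type and less RNA per cell cannot be told apart.

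Levels are given as CPM, the count of a gene scaled by the total of its library to a common library size. A mean of at least 5 CPM over the 80 libraries was reached by 9939 genes. For these genes the centred level is log2(CPM + 1) minus the median of that quantity over the 9939 genes of the library, and a day's level is the mean over its 8 libraries. A gene qualified if its day 1 level lay within 0.15 of day 0 and if it exceeded day 0 by at least 0.4 on both day 17 and day 21. These limits were met by 235 genes, which were ranked on the smaller of the day 17 and day 21 differences, and the first 200 were taken. The last gene inside stood at 0.42 in that measure and the first outside at 0.42 as well, while the last of the 235 stood at 0.40. Hence the late difference and the flat day 1 of the 200 genes describe how they were selected. They are given as a description.

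Identifiers in the files are not paired with gene names, and 0 of the 38550 identifiers matched the RefSeq gene table used for names, whose assembly is T2T-MFA8v1.1. What these genes encode, whether they are lymphocyte, granulocyte or red-cell genes, and whether the samples carry blood cell markers is therefore not analysed here. Results are ordered by day. Only 4 identifiers are printed, the first 2 in the ranking and the 2 with the largest called fall between days 7 and 8.

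The total count of a library lay between 17.1 and 80.2 M (mega), with a median of 24.3 M. Totals above 40 M occurred in 8 libraries, 1 of day 7 (animal 39097), 3 of day 8 (animals 39102, 39103 and 39104) and 4 of day 10. Column names carry sequencing tags, by which 8 libraries (3 of day 10 and 5 of day 14) belong to another run and 1 of day 7 (animal 39095) to another library preparation tag. In 2 animals, 39102 and 39104, the median gene of the day 8 library stood well below that of day 7, by 0.68 and 0.88 log2 CPM, against 0.11 to 0.39 in the other 6. Large drops also occurred elsewhere. The median gene was lower on day 4 than on day 3 by 0.77 in animal 39102. It was lower on day 14 than on day 10 by 0.62 in animal 39090 and by 0.55 in animal 39104.

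The selected genes were mostly small in their late change. The smaller of the 2 late differences was 1.84 for the first gene, 1.55 for the second, 1.42, 1.22 and 1.01 for the next 3, and under 1 for all others. It reached 0.5 in 87 genes, 0.6 in 30 and 0.7 in 14. The median of the 200 genes was 0.51 above day 0 on day 17 and 0.55 above on day 21. Over all 9939 genes these medians were 0.00 on both days.

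The genes differed widely in abundance. Their mean level ran from 5.13 to 1707 CPM with a median of 32.5 CPM, and that of the 9939 genes from 5.00 to 15385 CPM with a median of 35.9 CPM. Genes at 400 CPM or more made up 29 of the 200 (14.5%), against 4.37% of the 9939. Genes from 5 to 20 CPM made up 34.5%, against 32.8%. The late medians differed little among abundance classes, from 0.50 to 0.54 on day 17 and from 0.54 to 0.55 on day 21. Together the 200 genes took 2.87% ± 0.65 (SD, n = 8) of all counts on day 0, 2.62% ± 0.85 on day 8 and 4.43% ± 0.56 on day 21. The day 21 libraries, at 3.66 to 5.16%, all lay above the day 0 libraries, at 1.79 to 3.46%. Those of day 17, at 3.45 to 5.55%, overlapped day 0. Days 0, 17 and 21 served to select the genes, so nothing is read from these shares. The libraries of day 8 spread from 1.33 to 4.17% and overlapped those of days 0 and 21. These shares are weighted towards the most abundant members.

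On the days between, the genes did not climb evenly. Up to the day of the third dose, the median gene stood 0.22 above baseline on day 3, 0.08 above it a day later and 0.40 above it on day 7. The corresponding values for days 8, 10 and 14 were 0.07, 0.39 and 0.54. So the level averaged over animals stood high on days 3, 7 and 10. It was near day 0 on day 4 and day 8, the days after the second and the third dose. The day 4 average was pulled down by animals 39090 and 39102, whose mean changes from their own day 0 were -0.41 and -0.54. The median over the 8 animals was 0.20 on day 4, against 0.23 on day 3, and 0.09 on day 8. Most animals thus did not return to day 0 on day 4. On day 8 the middle 50% of the genes lay between -0.14 and 0.25. The medians of days 17 and 21, 0.51 and 0.55, were close to that of day 14. For 78 genes the highest day mean was that of day 14, for 63 that of day 21, for 36 that of day 17 and for 13 and 10 that of days 7 and 10. The lowest was the baseline for 73 genes, day 8 for 55, day 1 for 46, day 4 for 17 and a different day for the rest.

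**Figure D1:**
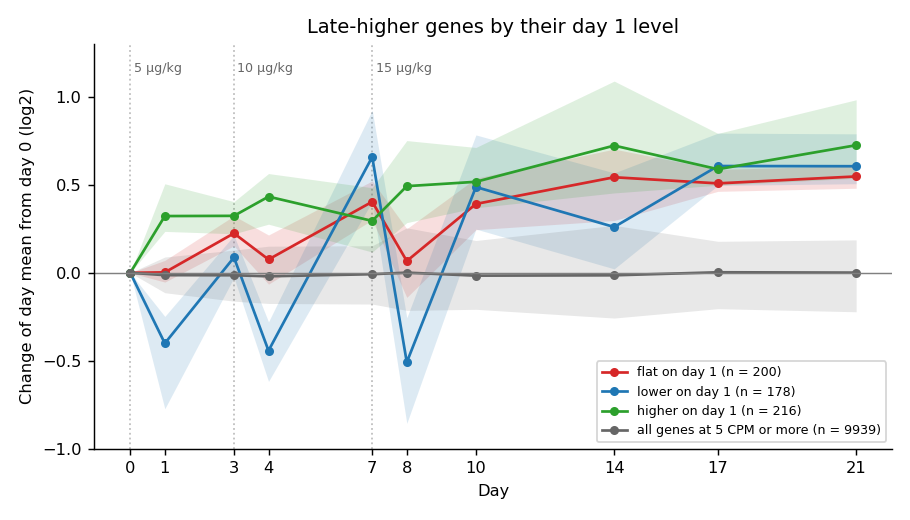
Lines give the median and shaded bands the middle 50% of genes for the change of the day mean from day 0, in log2 (vertical axis), against the day (horizontal axis), with the day and size of each dose as dotted lines. Red marks the 200 genes flat on day 1, blue 178 late-higher genes that were lower on day 1, green 216 that were higher on day 1, and grey all 9939 genes; the red line dips on days 4 and 8, where the blue line dips below day 0 and the green line does not dip.

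The same late limits were met by 629 genes whatever their day 1 level, and the plot of the late-higher genes by their day 1 level sets the 200 beside the others. Of these genes, 178 were lower on day 1 by 0.15 or more and 216 higher by as much. On day 8, which took no part in the sorting, the median change from day 0 was -0.51 in the 178, 0.07 in the 200 and 0.49 in the 216. On day 4 it was -0.44, 0.08 and 0.43. The 200 genes thus lay between the other groups on both days, in the order that day 1 had been used to set. On day 7 the order was the other way, with 0.66, 0.40 and 0.29. By days 17 and 21 the medians of the 200 were 0.51 and 0.55, those of the 178 both 0.61, and those of the 216 0.59 and 0.72. All these changes share the day 0 libraries with the selection and are a description.

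Single animals followed the mean to different degrees. The mean centred change of the 200 genes from the animal's own day 0 was 0.00 ± 0.17 (SD, n = 8) on day 1, with animals from -0.17 to 0.22. For days 3, 4, 7 and 8 the means were 0.23 ± 0.14, 0.07 ± 0.36, 0.41 ± 0.19 and 0.06 ± 0.38. The flat mean of day 1 therefore joined 4 animals in which 62% or more of the genes were above day 0 with 4 in which 31% or fewer were. On days 10, 14, 17 and 21 it was 0.40 ± 0.21, 0.50 ± 0.38, 0.57 ± 0.22 and 0.59 ± 0.16. The spread among animals was largest on days 4, 8 and 14.

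**Figure D2:**
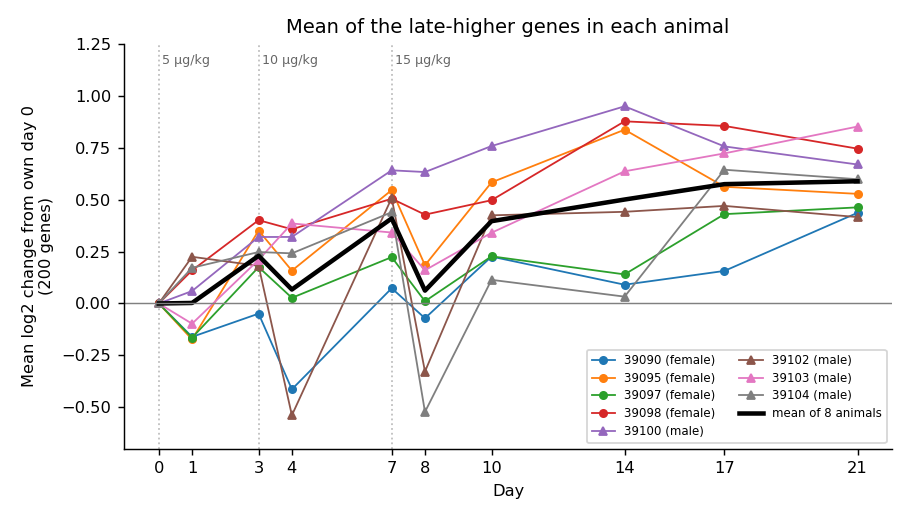
Each thin line is 1 animal (circles female, triangles male) and the black line the mean of 8; the vertical axis is the mean log2 change of the 200 genes from the animal's own day 0 and the horizontal axis the day, with doses as dotted lines. On day 8 animals 39090, 39102 and 39104 lie below their day 0 and animal 39100 at 0.63, while on day 21 the 8 animals lie between 0.42 and 0.85.

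Animal 39090 gave the smallest late change, 0.16 on day 17, where 136 of the 200 genes (68%) were above its own day 0. In the other 7 animals 175 to 200 genes were. On day 21 the count ran from 171 in animal 39090 to 199 in animals 39098 and 39103. Gene by gene, 95 of the 200 were above day 0 in all 8 animals on day 17 and 139 on day 21, and each was so in at least 6 animals on day 17 and at least 5 on day 21. Days 0, 17 and 21 served to select the genes, so these counts are a description. Shares over the 9939 genes were not computed for them. The median gene's SD over animals was 0.33 on day 17 and 0.48 on day 8, against 0.25 and 0.38 over the 9939 genes. The genes thus varied more between animals than the typical gene on both days.

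Complete separation from baseline was less common. On day 17 all 8 libraries lay above all 8 of day 0 for 30 of the 200 genes, a pattern found in 0.745% of the 9939 genes. On day 21 this held for 42 of the 200, against 0.926%. The groups overlapped for the other genes. Both days served to select the genes, so nothing is read from the gap.

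Steps between days other than 0, 1, 17 and 21 were tested with edgeR's quasi-likelihood test, on the 16 libraries of each pair of days with animal as a block. A gene is called at an adjusted p under 0.05 (Benjamini-Hochberg over 16054 genes), and all 200 genes passed the filter on low counts. These days entered the selection only through the minimum of 5 CPM, a mean over all 80 libraries. Consecutive steps share the libraries of 1 day and are therefore not independent of each other. The first of them, from day 3 to day 4, spans the second dose. The centred level was lower on day 4 in 167 of the 200 genes, with a median of -0.14, and in 6 of 8 animals by the mean over the genes. edgeR called 0 of the 200 lower (all genes 0.181%) and 0 higher (all genes 0). An unadjusted p under 0.05 was found for 36 of the 200 and 1762 of the 16054 genes tested. DESeq2 called 3 lower (1.5%), against 1.31% of all genes. The mean step was -0.16 ± 0.28 (SD, n = 8), so the spread between animals exceeded it. Animal 39102 was lowest at -0.72, and the median gene of its library was lower by 0.77 log2 CPM. Animals 39098 and 39104, counted among the lower ones, stood at only -0.04 and -0.01.

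From day 4 to day 7 the genes were higher in 190 of 200, with a median step of 0.32. edgeR called 12 of them higher (6%), against 2.19% of all genes, and 0 lower, against 0.885%. An unadjusted p under 0.05 was found for 86 of the 200 and 3087 of the 16054 genes tested. The 12 rose by 0.43 to 1.52 log2, with a median of 0.71, and 3 of them by more than 2-fold. The mean over the 200 genes was higher in 7 of 8 animals, by 0.34 ± 0.33 (SD, n = 8). Animal 39102 stood apart at 1.05, the others lying at 0.49 or less, and the median gene of its library was higher by 0.84 log2 CPM. Without this animal 15 genes were called higher (all genes 2.62%). The median edgeR log2 change of the 200 genes was then 0.21, against 0.31 with the animal. The count of 12 is unstable. Removal of animal 39090 or of 39100 left 2, of 39095 left 3, of 39104 left 5 and of 39097 left 6, whereas removal of 39103 gave 27 and DESeq2 gave 47. The shares of all genes called higher in these fits were, in the same order, 0.891%, 0.617%, 0.903%, 1.35%, 1.28%, 3.87% and 5.46%.

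Days 3 and 7 are those on which the second and the third dose were given. The median gene was 0.17 higher on day 7 and 181 of 200 genes were higher. All 8 animals were higher by the mean over the genes, by 0.18 ± 0.10 (SD, n = 8), from 0.05 to 0.33. A higher level on day 7 in every animal was seen in 14 of the 200 genes (7%), against 2.01% of the 9939. By the edgeR test 1 gene was called higher (all genes 0.411%) and 0 lower (all genes 0.156%). An unadjusted p under 0.05 was found for 52 of the 200 and 2054 of the 16054 genes tested. DESeq2 called 8 of the 200 higher, and 2.16% of all genes. The steps of single genes ran from -0.22 to 1.44.

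The step from day 7 to day 8, across the third dose, held the largest number of falls among these steps. edgeR called 56 of the 200 genes lower (28%), against 7.77% of all genes tested, and 1 higher (0.5%), against 6%. The 56 fell by 0.35 to 1.28 log2, with a median of 0.71, and 8 of them by more than 2-fold. Over all 200 genes the median edgeR log2 change was -0.35, against -0.06 over all genes. On the centred scale 180 of the 200 were lower, and 40 were lower in every animal (20%), against 8.19% of the 9939.

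**Figure D3:**
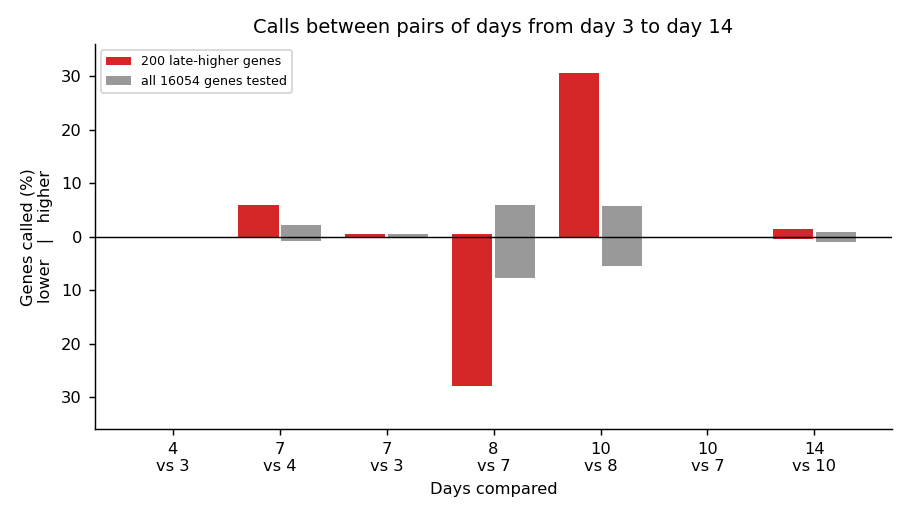
Bars give the percentage of genes called higher (above the line) or lower (below the line) at an adjusted p under 0.05 for each pair of days, red for the 200 genes and grey for all 16054 genes tested. The 28% called lower on day 8 against day 7 and the 30.5% called higher on day 10 against day 8 exceed the grey bars of 7.77% and 5.64%. Without animal 39095 the counts behind these red bars drop to 4 and 3 genes, and the shares of all genes to 0.816% and 0.355%.

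The size of this fall differed between animals. All 8 were lower by the mean over the genes, by 0.35 ± 0.36 (SD, n = 8). The steps were -0.96 in animal 39104, -0.84 in 39102 and -0.36 in 39095. The other 5 lay between -0.21 and -0.01, with animal 39100 at -0.01. The lowest 2 are the animals whose day 8 libraries had the low median gene, and both day 8 libraries were among those above 40 M counts. These values are after removal of the library median. The part of library depth and of the low median gene in the fall was not tested.

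The count of falls depended on single animals. With animal 39095 removed 4 of the 200 genes were called lower, with 39098 removed 8, with 39102 removed 12 and with 39090 removed 13. Removal of 39100, 39104 or 39097 left 26, 30 and 37. The share of all genes called lower dropped as well, to 0.816% without 39095 and to 1.74% without 39102. The median over the 200 genes stayed between -0.43 and -0.26 in these fits. Without the animals that have a library above 40 M on either day, 45 were called lower (22.5%) and 16 higher (8%), against 6.89% and 11.4% of all genes, and the median was -0.15. Animal 39095 is also the one whose day 7 library carries the other tag, so its removal and a comparison within 1 tag are the same fit. With library totals in place of TMM scaling, 125 of the 200 and 25.7% of all genes were called lower, and the median over all genes moved from -0.06 to -0.43.

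From day 8 to day 10 the genes were higher again. edgeR called 61 of the 200 higher (30.5%), against 5.64% of all genes, and 0 lower, against 5.51%. An unadjusted p under 0.05 was found for 124 of the 200 and 4952 of the 16054 genes tested. The 61 rose by 0.32 to 1.19 log2, with a median of 0.57, and 4 of them by more than 2-fold. On the centred scale 183 of the 200 were higher, with a median step of 0.33, and 41 were higher in every animal (20.5%), against 5.88% of the 9939. The mean over the genes was higher in all 8 animals, by 0.33 ± 0.25 (SD, n = 8), with the largest steps of 0.75 and 0.64 in animals 39102 and 39104. The day 8 libraries are shared with the fall described before, so the return is not a separate observation of that day.

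**Figure D4:**
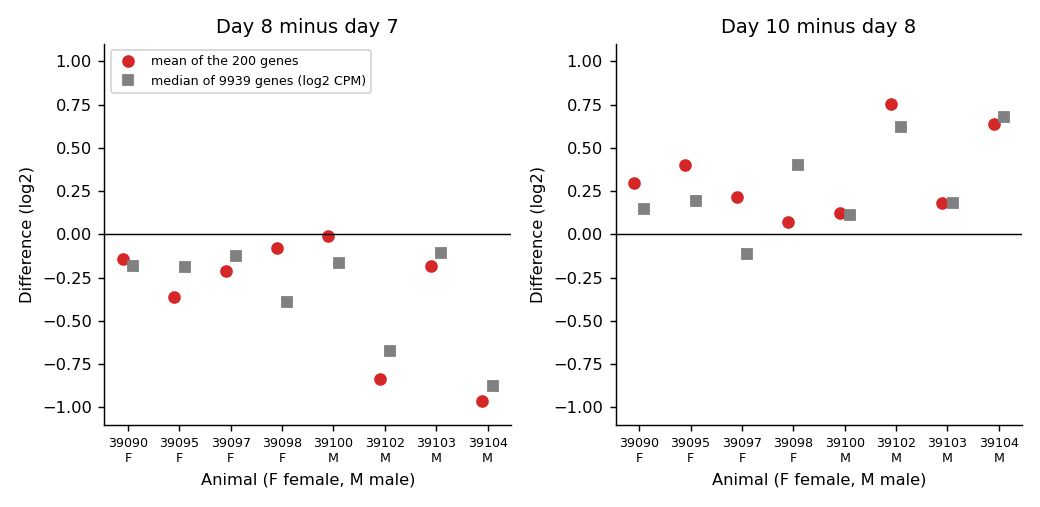
For each animal (horizontal axis, F female and M male), red circles give the mean centred log2 difference of the 200 genes and grey squares the difference in the median log2 CPM of the 9939 genes, for day 8 minus day 7 (left) and day 10 minus day 8 (right). Red circles are below 0 in all 8 animals on the left and above 0 in all 8 on the right, with animals 39102 and 39104 the farthest from 0 in both measures.

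The count of rises also moved with the animals included. Removal of 39095, 39104 or 39098 left 3, 12 and 15 genes, and removal of 39090, 39100 or 39102 left 22, 28 and 30. The share of all genes called higher dropped as well, to 0.355%, 1.6% and 1.41%, and to 2.42%, 2.33% and 2.97%. The median over the 200 genes stayed between 0.30 and 0.41. Within the shared run and library tag, 39 genes were called higher (19.5%) and 3 lower (1.5%), against 3.59% and 5.09% of all genes, with a median of 0.27. That fit leaves out animals 39102, 39103 and 39104, so effects of the tag and of these animals cannot be told apart in it. Library totals in place of TMM scaling gave 132 higher (all genes 15.6%), and the median over all genes moved from 0.04 to 0.31.

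Among the selected genes, the share called differed between abundance classes. Between days 7 and 8, the genes called lower were 23 of 69 at 5 to 20 CPM (33.3%), 26 of 71 at 20 to 100 CPM (36.6%), 6 of 31 at 100 to 400 CPM (19.4%) and 1 of 29 at 400 CPM or more (3.45%). Between days 8 and 10, those called higher were 22, 31, 6 and 2 of the same classes. The class median of the change from day 0 went from 0.39 on day 7 to -0.03 on day 8 in the lowest class and from 0.38 to 0.10 in the highest. The most abundant class was thus also lower on day 8 than on day 7, by less. For the calls, shares among all genes of the same abundance classes were not computed. Whether the differences between classes are particular to the selected genes was therefore not tested.

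Among the other late-higher genes the calls of these steps were distributed differently. Of the 178 genes lower on day 1, 156 were called lower between days 7 and 8, and 146 were called higher between days 8 and 10. Of the 216 genes higher on day 1, 9 were called lower and 41 higher between days 7 and 8, and 9 were called higher between days 8 and 10. The 200 genes lay between, with 56 lower (28%) and 1 higher (0.5%) at the first step and 61 higher (30.5%) at the second. Of all genes tested, 7.77% were called lower and 6% higher at the first step, and 5.64% higher at the second. The 9 lower and the later 9 higher among the 216 were below those shares. The median centred step between days 7 and 8 was -1.16 in the 178, -0.36 in the 200 and 0.16 in the 216. The groups were sorted by day 1 after the first dose and the steps were measured around the third dose, in the same animals. The differences between groups were not tested.

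The median gene differed little between days 7 and 10. The median centred step between them was 0.00, with 99 genes higher and 101 lower, and 4 animals higher and 4 lower. edgeR called 0 of the 200 genes in either direction, as it called 0 of all genes tested; 20 of the 200 and 1663 of all genes had an unadjusted p under 0.05, and DESeq2 called 1 of the 200 higher. The mean step over animals was -0.01 ± 0.15 (SD, n = 8). Within the shared run and library tag, which leaves out animals 39095, 39102, 39103 and 39104, the median edgeR log2 change was 0.10. There 2 genes were called higher (all genes 1.05%). In that fit 70 of the 200 and 2319 of all genes had an unadjusted p under 0.05. Without the animals that have a library above 40 M on either day, the median was -0.09, with 143 genes lower. The absence of calls does not show equal levels.

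Between days 10 and 14 the median gene was 0.12 higher and 137 of 200 genes were higher, 5 animals being higher and 3 lower. edgeR called 3 of the 200 higher (all genes 0.891%) and 1 lower (all genes 0.99%). An unadjusted p under 0.05 was found for 59 of the 200 and 3522 of the 16054 genes tested. The spread between animals, 0.10 ± 0.20 (SD, n = 8), exceeded the mean step. In animals 39090 and 39104 the median gene of the day 14 library was lower than that of day 10 by 0.62 and 0.55 log2 CPM. The part of this in the step was not tested. Of the 16 libraries, 8 belong to another run, and no animal has both libraries in 1 run. With the run as a term in the fit, 7 were called higher and 2 lower. With library totals 0 were called higher and 6 lower, and the median over the 200 genes turned from 0.09 to -0.13, the median over all genes being -0.26.

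Levels of the 200 genes also moved together within days. After subtraction of each gene's day mean over the 48 libraries of days 3 to 14, which entered the selection only through the minimum of 5 CPM, the median correlation between pairs of the 200 genes was 0.35, with the middle 50% of pairs between 0.13 and 0.54 and 85.7% positive. Over all pairs of the 9939 genes the median was 0.00, with the middle 50% between -0.28 and 0.28. The 48 points are 8 animals seen on 6 days and share library depth and scaling, so the values are a description.

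Males and females were compared in their late change. The selection used the mean of these libraries over both sexes, with 4 animals of each, and not the difference between the sexes. The mean change of the 200 genes on day 17 was 0.50 ± 0.29 (SD, n = 4) in females and 0.65 ± 0.13 (SD, n = 4) in males, and on day 21 0.54 ± 0.14 and 0.63 ± 0.18. The ranges overlapped on both days, with females from 0.16 to 0.86 and males from 0.47 to 0.76 on day 17. In edgeR's test of the sex-by-day terms over days 0, 17 and 21, 0 of the 200 genes were called (all genes 0). An unadjusted p under 0.05 was found for 9 of the 200 and 727 of all genes, the smallest adjusted p was 0.988, and DESeq2 called 1 of the 200 and 10 of all genes. The median difference, male minus female, was 0.12 on day 17 and 0.02 on day 21. With 4 animals of each sex, a sex difference as large as the late change itself could go uncalled. The absence of calls therefore does not show that the sexes were alike.

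Of single genes, the first in the ranking, ENSMFAG00000003180, met the limits only with certain animals included. On day 0 it ran from 0.508 CPM through a median of 1.27 to 276 CPM, the highest being animal 39097, while the other 7 lay at 1.77 CPM or less. The lowest, median and highest were 1.18, 5.15 and 20.7 CPM for day 10, 2.43, 13.4 and 32.8 CPM for day 14, and 8.29, 23.6 and 44.3 CPM for day 21. For day 17 they were 1.36, 11.1 and 546 CPM, the highest being animal 39100. All day 21 libraries thus lay above 7 of the 8 day 0 libraries. Without animal 39097 the day 1 difference was 0.98, outside the limit of the selection, and the late differences were 2.80 and 3.40; without animal 39100 the day 17 difference was 1.04. The day 1 difference also left the limit without 39095, 39100 or 39104, at 0.25, 0.19 and -0.36. Between days 7 and 10, which the selection did not use, it was higher in 8 of 8 animals, with a log2 change of 1.50 (SE 0.26) and an adjusted p of 0.305 by edgeR.

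The second gene, ENSMFAG00000026321, differed widely between animals in its late change. It was above the animal's own day 0 in 8 of 8 animals on day 17 and in 7 of 8 on day 21. Its lowest, median and highest level was 0.771, 5.23 and 26.99 CPM on day 0, and 1.37, 3.69 and 19.9 CPM on day 10. They were 1.68, 6.62 and 82.5 CPM for day 14, 3.76, 32.5 and 232 CPM for day 17, and 3.88, 11.7 and 115 CPM for day 21. The groups overlapped on all these days, and animals 39102 and 39103 were the high ones on day 14. Between days 10 and 14 it was higher in 8 of 8 animals, with a log2 change of 1.46 (SE 0.37) and an adjusted p of 0.0636 by edgeR. Without animal 39097 its day 1 difference was 0.15, just past the limit.

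The gene with the largest called fall between days 7 and 8 was ENSMFAG00000043399, at a low mean of 6.23 CPM. Its median went from 4.72 CPM at baseline to 5.42 and 3.70 CPM around the second dose (days 3 and 4), and from 8.41 to 3.57 CPM around the third (days 7 and 8). It was 6.39 CPM on day 10 and 8.40 CPM on day 21. Day 7 ran from 3.80 to 17.6 CPM and day 8 from 0.868 to 6.27 CPM, so the days overlapped. The lowest day 8 values, 0.868 and 0.905 CPM, came from animals 39104 and 39102 and rest on 45 and 53 counts. It rose from day 4 to day 7 by 1.31 log2 (SE 0.27, adjusted p 0.0264 by edgeR, higher in 8 of 8 animals) and fell to day 8 by 1.28 (SE 0.23, adjusted p 0.0169, lower in 7 of 8). It rose again to day 10 by 1.17 (SE 0.21, adjusted p 0.0165, higher in 8 of 8). The gene was picked for the size of its fall, and both rises share libraries with that fall. Sizes and p of these 3 steps are thus likely overstated. The first rise lost its call in 5 of 13 alternatives, with adjusted p from 2.17e-05 to 0.0935, and the second in 2 of 14, with adjusted p from 1.15e-05 to 0.0748. Over the alternatives run the fall lay between -1.64 and -1.14 log2 and lost its call in 3 of 15, with adjusted p from 1.59e-05 to 0.0551.

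**Figure D5:**
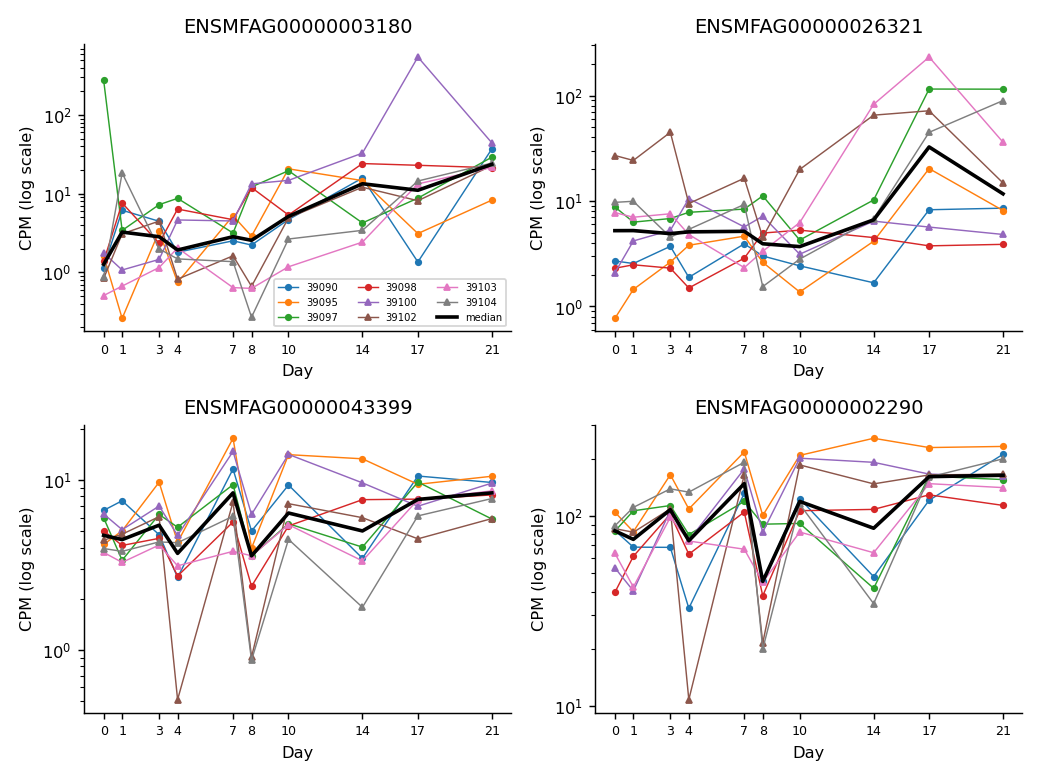
Level in CPM (vertical axis, log scale) of the 4 named genes in every library against the day (horizontal axis); thin lines are animals (circles female, triangles male) and the black line is the median of 8. The upper genes lead the ranking. The first, ENSMFAG00000003180, shows single high libraries (276 CPM in animal 39097 on day 0, 546 CPM in animal 39100 on day 17). The lower genes are low on day 8, with animals 39102 and 39104 lowest.

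The fifth gene of the ranking, ENSMFAG00000002290, joined a large late change to the dips of days 4 and 8. On day 0 its lowest, median and highest level was 39.6, 83.6 and 105 CPM, and on day 1 40.3, 75.4 and 111 CPM. On day 17 it was 121, 161 and 229 CPM and on day 21 114, 164 and 233 CPM, so that all 8 libraries of both days lay above all 8 of day 0. Around the second dose it went from 68.4, 108 and 165 CPM (day 3) to 10.8, 74.1 and 134 CPM (day 4). Around the third it went from 66.9, 148 and 218 CPM (day 7) to 19.9, 45.2 and 101 CPM (day 8), and then to 82.4, 119 and 209 CPM (day 10). The day 8 median was thus below that of day 0, and the days on either side were above it. It was lower on day 4 than on day 3 in 8 of 8 animals, by -0.71 log2 (SE 0.22), with an adjusted p of 0.361 by edgeR. It fell from day 7 to day 8 in 8 of 8 animals, by 1.17 (SE 0.22, adjusted p 0.0187), and rose to day 10 in 8 of 8, by 1.19 (SE 0.21, adjusted p 0.0165). This gene too was picked for its fall, and the rise shares the day 8 libraries, so both are likely overstated. The rise lost its call in 1 of 14 alternatives, with adjusted p from 6.46e-06 to 0.0538. The fall lost its call in 3 of 15, with adjusted p from 1.01e-05 to 0.0551, and lay between -1.53 and -1.02 log2.

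A second deposited table counts the same 80 libraries over 35432 genes under other identifiers, so its genes could not be matched to the 200. Under the same rule 9953 genes reached 5 CPM, 258 met the limits and 200 were taken. Their median change from day 0 was 0.22, 0.07, 0.41, 0.06, 0.39, 0.55, 0.53 and 0.56 on days 3, 4, 7, 8, 10, 14, 17 and 21. Over the 80 libraries the mean change of its 200 genes differed from that of the main table by at most 0.05. The libraries are the same, so the table bears on the counting and not on the animals.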

How the data were processed

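The authors deposited gene counts, whole numbers of reads per gene without normalization, in 2 tables of the same 80 libraries. RNAdvance Blood (extraction) and KAPA HyperPrep mRNA (libraries) were the kits, per the labels' protocols. The program and genome used for alignment and counting, and whether counting used strand, are not given in the sources at hand, so reads shared between similar or overlapping genes may sit in either. All columns were mapped to samples by name. The 200 genes, the gene lists and the tests were chosen with earlier results of these data known. The gene lists could not be used, since identifiers have no names. The 4 named genes are the first 2 in the ranking and the 2 with the largest called fall between days 7 and 8.

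The 16 libraries of a pair of days were fitted with edgeR 4.0.16 (glmQLFit, glmQLFTest) in R 4.3.3, with animal as a block, TMM factors over 80 libraries and filterByExpr grouped by day, which left 16054 genes. Calls have a Benjamini-Hochberg adjusted p under 0.05. Log2 changes and standard errors (SE) with a p are edgeR's. Alternatives were DESeq2 1.42.0, no block, library totals, no filter, 1 fit over all 80 libraries and leaving out each animal. Fits within 1 tag, with the run as a term and without libraries above 40 M counts were added after seeing the data. Those within 1 tag leave out every animal with a library of another tag on either day. The procedure was also run on simulated counts, with the same gene means in all animals and 1 fixed spread. Such counts lack differences between animals, so that run does not bear on the dependence on single animals. Python 3.11.15 gave the centred levels.

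The labels give the same animal number on each day, which pairs the libraries. Deviations from the day means over the 9939 genes had a median correlation of 0.58 within an animal (lowest -0.44) and of -0.08 between animals.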

Additional observations from a re-analysis of the deposited data

Results flagged for a closer look

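The centred levels (log2) of the 4 named genes and the mean over the 200 genes were searched on each of the 10 days for an animal far from the other 7. This gave 5 of 50 groups, where chance gives about 1 in 20. ENSMFAG00000003180 stood at 2.91 in animal 39097 on day 0, the others lying between -4.54 and -3.64. The same gene stood at 3.77 in animal 39100 on day 17, the others lying between -3.94 and -0.57. ENSMFAG00000026321 stood at 0.16 in animal 39102 on day 3, against -3.40 to -2.16. ENSMFAG00000043399 stood at -3.99 in animal 39102 on day 4, against -3.13 to -2.40. ENSMFAG00000002290 stood at 2.55 in animal 39095 on day 17, against 1.75 to 2.13. The mean over the 200 genes had no such animal on any of the 10 days.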

How the results depend on the processing

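Counts are of the 200 genes, and shares in parentheses are of all genes tested. DESeq2 called 3 lower from day 3 to 4 (1.31%), 47 higher from day 4 to 7 (5.46%) and 8 higher from day 3 to 7 (2.16%). It called 5 higher (15.7%) and 76 lower (12.6%) from day 7 to 8, and 90 higher from day 8 to 10 (9.59%). It called 1 higher from day 7 to 10 (0.648%), 31 higher (7.14%) and 7 lower (4.37%) from day 10 to 14, and 1 by sex (0.0623%). Library totals gave 3 higher from day 4 to 7 (1.54%), 0 from day 3 to 7 (0.262%), and 0 higher (3.75%) and 125 lower (25.7%) from day 7 to 8. They gave 132 higher from day 8 to 10 (15.6%), and 0 higher (0.704%) and 6 lower (3.3%) from day 10 to 14. One fit over all 80 libraries gave 63 higher from day 4 to 7 (7.33%) and 3 from day 3 to 7 (0.716%). From day 7 to 8 that fit gave 3 higher (18%) and 98 lower (15.7%), and from day 8 to 10 it gave 89 higher (11.3%). From day 10 to 14 it gave 26 higher (6.57%) and 6 lower (6.91%). Without a low-count filter there were 15 higher from day 4 to 7 (1.6%), 5 from day 3 to 7 (0.932%) and 1 from day 7 to 10 (0.475%). That fit gave 52 lower from day 7 to 8 (4.17%) and 56 higher from day 8 to 10 (3.03%). It gave 6 higher (1.26%) and 4 lower (1.12%) from day 10 to 14. Within 1 tag there were 0 higher (0.081%) and 4 lower (0.816%) from day 7 to 8. There were 39 higher (3.59%) and 3 lower (5.09%) from day 8 to 10, and 2 higher (1.05%) from day 7 to 10. Without libraries above 40 M, 16 were higher (11.4%) and 45 lower (6.89%) from day 7 to 8. With the run as a term, 7 were higher (1.89%) and 2 lower (1.27%) from day 10 to 14.

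Without the replicate block, which ignores the pairing by animal, there were 4 higher from day 4 to 7 (1.17%) and 0 from day 3 to 7 (0.0187%). There were 0 higher (1.48%) and 12 lower (2.88%) from day 7 to 8. From day 8 to 10 there were 6 higher (1.21%), and from day 10 to 14 there were 0 higher (0.268%).

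Leaving out 1 animal gave 0 to 3 lower from day 3 to 4, 2 to 27 higher from day 4 to 7, 0 to 3 higher from day 3 to 7, 0 to 4 higher and 4 to 54 lower from day 7 to 8, and 3 to 65 higher from day 8 to 10. It gave 0 to 1 higher from day 7 to 10, and 0 to 12 higher and 0 to 3 lower from day 10 to 14. The shares of all genes moved in these fits too. They were 0.617 to 3.87% higher from day 4 to 7, 0.816 to 8.95% lower from day 7 to 8, and 0.355 to 8.08% higher from day 8 to 10. The median change of the 200 genes kept its sign in every fit from day 4 to 7 (0.21 to 0.50), day 7 to 8 (-0.70 to -0.15) and day 8 to 10 (0.27 to 0.63). From day 10 to 14 it lay between -0.13 and 0.16. The cause of these shifts was not tested.

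The choice of genes shifted too. Of the 200, 187 stayed among the first 200 with TMM scaling, 193 without removal of the library median, 178 with a pseudocount of 0.1, 153 with a minimum of 1 CPM, and 144 to 171 with 1 animal left out. The fit from day 8 to 10 without libraries above 40 M was not run, as 1 animal remained. No call of the named genes turned direction. At 45 and 53 counts, as for ENSMFAG00000043399 in animals 39104 and 39102 on day 8, counting error limits single values.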
